A study of Mus musculus with 12 samples.

Results

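Fibronectin, the matricellular proteins, and the proteins of the elastic fiber were examined as a group of 10 genes, *Fn1*, *Tnc*, *Postn*, *Thbs1*, *Thbs2*, *Sparc*, *Spp1*, *Fbn1*, *Eln*, and *Lox*. The genes were taken by symbol from the 55536 genes of the deposited table of raw read counts, with earlier results of these data known, so that the choice was not independent of the data. The study differentiated C2C12GFP cells, a mouse myoblast line that expresses green fluorescent protein, in low-serum medium on 4 kinds of plate. Control plates carried no coating, the Collagen I and Fibronectin plates carried the purified protein, and the Geltrex™ plates carried a thin gel of basement membrane matrix. RNA-seq covered 12 samples, 3 per group, of a single cell line, and the day of differentiation at which RNA was taken was not given in the sources used here. *Fn1* counts measure the cells' own fibronectin transcript, since a protein coating adds no RNA. The labels do not say that the 3 samples of a group were separate cultures, so p-values measure only the spread between these samples, which may be technical.

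Fibronectin is secreted as a dimer that cells pull into fibrils through integrins, and these fibrils serve as a base on which collagens and other matrix proteins are laid down. Matricellular proteins, which include tenascin-C, periostin, the thrombospondins, SPARC, and osteopontin, sit in the matrix without being its main structural part and modulate how cells attach and respond to it. Elastic fibers are built from elastin deposited on fibrillin microfibrils, and lysyl oxidase crosslinks both elastin and collagen. In skeletal muscle, several of these genes are active in myoblasts and in the connective tissue of developing and regenerating muscle.

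Total counts lay between 22520404 and 27351766 per sample. All 14 myotube markers examined passed the filter on low counts, and their summed level was 11329 to 12478 CPM (counts per 1000000 counts of the TMM-scaled library) in Control, 11822 to 12742 in Collagen I, 3630 to 4132 in Fibronectin, and 5309 to 5761 in Geltrex™. All 14 were lower in Fibronectin and in Geltrex™ than in Control at an adjusted p of at most 0.05. Of all genes tested, 14.7% and 16.6% were called lower in these comparisons. The 9 proliferating myoblast markers summed to 292 to 344 CPM in Control, 255 to 273 in Collagen I, 712 to 905 in Fibronectin, and 741 to 801 in Geltrex™. Of these 9, 7 were higher in Fibronectin and in Geltrex™ than in Control, where 17.1% and 16.4% of all genes were called higher. *Myf5* and *Pax7* were not among these 7. *Myf5* had group means of 34.2 CPM in Control, 36.1 in Fibronectin, and 33.0 in Geltrex™, and *Pax7* had 0.56, 0.49, and 0.22. Macrophage markers, which could accompany *Spp1*, summed to 7.87 to 13.8 CPM over the 12 samples, and *Adgre1*, which defines macrophages, had no count in any sample. Fibroblast markers summed to 6399 to 7003 CPM in Control, 6286 to 7028 in Collagen I, 5735 to 6786 in Fibronectin, and 5606 to 5971 in Geltrex™. *Thy1*, a defining fibroblast marker, had no count, whereas *Pdgfra* was at 27.2 to 42.9 CPM as group means. Among the 8 fibroblast markers tested, 4 were lower in Geltrex™ than in Control and 0 higher, where 33.0% of all genes were called. In Fibronectin, 3 were lower and 0 higher, where 31.9% of all genes were called. *Lum*, *Col1a1*, and *Pi16* fell by at least 2-fold in Geltrex™ (9.14% of all genes), with *Lum* at a mean of 90.5 CPM in Control and 19.2 in Geltrex™. In bulk RNA, fewer cells of a type and less RNA per cell cannot be told apart, and the part of the myotube and myoblast levels in the results on the matrix genes was not tested.

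**Figure D1:**
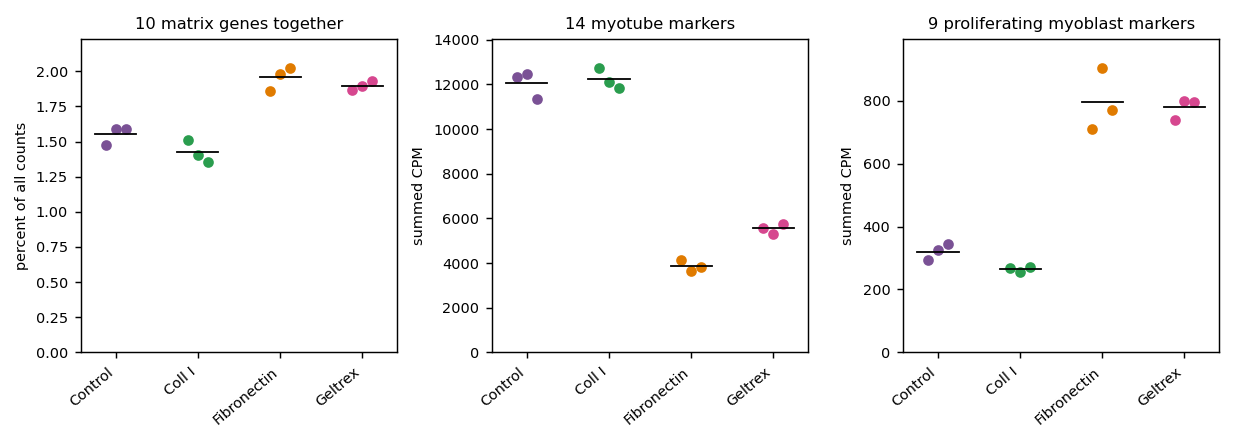
The left panel plots the 10 matrix genes as a percent of all counts, and the other panels plot the summed CPM of 14 myotube and 9 proliferating myoblast markers, with a point for each of 3 samples per group and a bar at the mean. Matrix genes took 1.36 to 1.59% of counts in Control and Collagen I samples and 1.86 to 2.02% in Fibronectin and Geltrex™ samples.

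Together the 10 genes accounted for 1.48 to 1.59% of all counts in Control, 1.36 to 1.51% in Collagen I, 1.86 to 2.02% in Fibronectin, and 1.87 to 1.93% in Geltrex™. On the scale of CPM per kb of exon, which allows genes to be compared, the mean level over 12 samples was highest for *Spp1* at 2160, followed by *Sparc* at 691, *Fn1* at 603, *Thbs1* at 347, *Lox* at 150.2, and *Fbn1* at 57.8. *Spp1* ranked 11 among the 14499 genes tested on this scale, *Sparc* 25, *Fn1* 31, and *Thbs1* 63. *Thbs2* at 20.9, *Tnc* at 16.2, and *Postn* at 11.1 lay lower, and *Eln*, at 0.050, ranked 14417. All 10 genes passed the filter on low counts, *Eln* with 1 to 19 counts per sample.

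**Figure D2:**
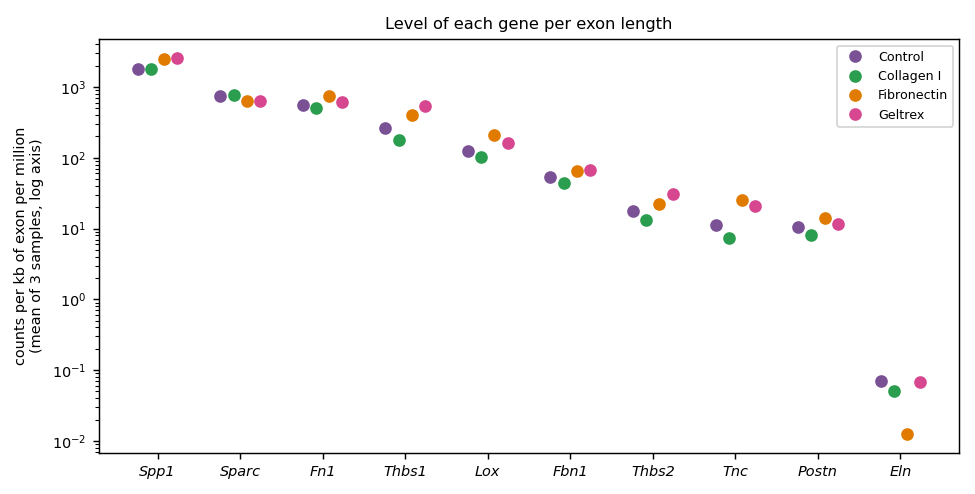
Mean level of each gene in each group in CPM per kb of exon, on a log axis, with a point for the mean of 3 samples. *Spp1* was the most abundant of the 10 transcripts per length and *Eln* the least in every group.

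*Fn1*, which encodes fibronectin (chr1:71585520-71653200, minus strand, GRCm38), was at 5632, 7037, and 6694 CPM in the 3 Control samples and at 6220, 5765, and 5611 CPM in Collagen I. The Fibronectin samples were at 8093, 8573, and 9152 CPM and the Geltrex™ samples at 6901, 7204, and 7665 CPM. Each Fibronectin sample exceeded all other samples of the study, while the Control range overlapped those of Collagen I and Geltrex™. The transcript was thus 1.33-fold higher on the fibronectin coating than on uncoated plates (log2 fold change 0.42, SE 0.097, Benjamini-Hochberg adjusted p = 0.00436 by the quasi-likelihood test of edgeR, over 14499 genes). Geltrex™ and Control differed by 0.17 on the log2 scale, with a 95% interval of -0.037 to 0.38 (edgeR adjusted p = 0.203). *Fn1* was 1.47-fold lower in Collagen I than in Fibronectin (edgeR adjusted p = 0.000361) and 1.24-fold lower than in Geltrex™ (edgeR adjusted p = 0.0216). The latter call was lost without Collagen I replicate 2 or 3 or Geltrex™ replicate 2 or 3, where the adjusted p was 0.0513 to 0.0905.

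**Figure D3:**
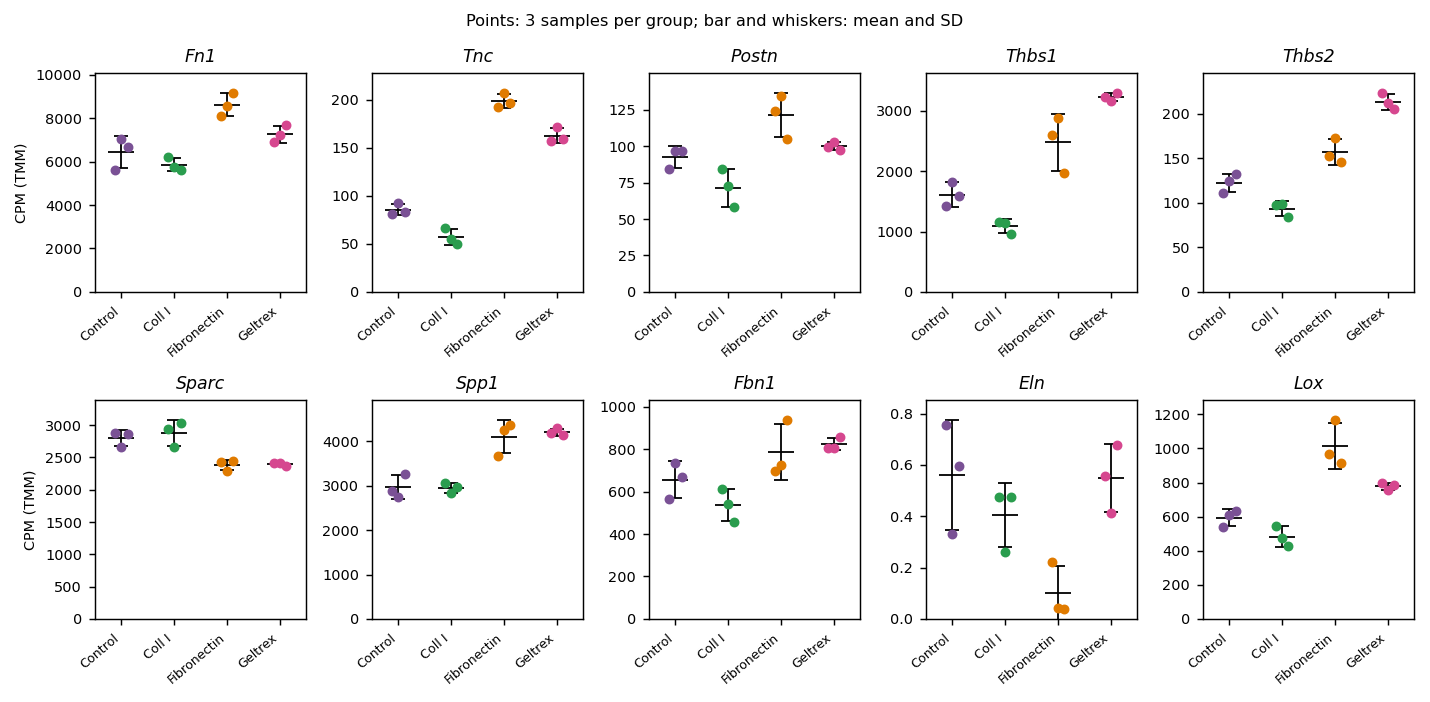
CPM of the 10 genes, with TMM-scaled library sizes, in 3 samples of each group (points) with mean and SD (bar and whiskers). *Tnc*, *Postn*, *Thbs1*, *Thbs2*, *Spp1*, and *Lox* were higher in all Fibronectin and Geltrex™ samples than in any Control or Collagen I sample. For *Postn* the margin was narrow, 97.4 CPM in a Geltrex™ sample against 97.0 in a Control sample. *Sparc* was lower in all Fibronectin and Geltrex™ samples.

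Tenascin-C, encoded by *Tnc*, is a large hexameric glycoprotein that loosens cell adhesion to fibronectin. Its transcript was at 81.6, 92.9, and 83.0 CPM in Control, 66.9, 55.0, and 49.7 in Collagen I, 192, 207, and 197 in Fibronectin, and 157, 171, and 160 in Geltrex™. The 4 groups did not overlap, and the order from Fibronectin through Geltrex™ and Control to Collagen I was the same whichever samples were compared. *Tnc* was 2.32-fold higher in Fibronectin than in Control (log2 1.21, SE 0.098, edgeR adjusted p = 2.32e-07) and 1.90-fold higher in Geltrex™ (log2 0.92, SE 0.097, edgeR adjusted p = 2.65e-06). It fell 1.5-fold in Collagen I (log2 -0.59, SE 0.098, edgeR adjusted p = 0.00768), a call that was lost without Control replicate 2 (adjusted p = 0.0501) or Collagen I replicate 2 (0.0543). The 3.48-fold difference between Fibronectin and Collagen I had an edgeR adjusted p of 3.99e-09. Fibronectin and Geltrex™ differed by 1.22-fold (edgeR adjusted p = 0.0460), and this call was lost without any one of the 6 samples (adjusted p = 0.0662 to 0.167).

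Periostin, the product of *Postn*, binds collagen and fibronectin and assists collagen crosslinking. *Postn* was at 84.0, 96.5, and 97.0 CPM in Control, 84.2, 72.3, and 58.2 in Collagen I, 124, 135, and 105 in Fibronectin, and 99.5, 103, and 97.4 in Geltrex™. Fibronectin samples lay above all others, with 1 Collagen I sample within the Control range. *Postn* was 1.31-fold higher in Fibronectin than in Control (log2 0.39, SE 0.12, edgeR adjusted p = 0.0199), a call lost without Control replicate 1, Fibronectin replicate 1, or Fibronectin replicate 2 (adjusted p = 0.0624 to 0.0926). It was 1.69-fold higher in Fibronectin than in Collagen I (edgeR adjusted p = 0.000129) and 1.40-fold higher in Geltrex™ than in Collagen I (edgeR adjusted p = 0.00510). Geltrex™ and Control differed by 0.11 on the log2 scale (95% interval -0.14 to 0.36).

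Thrombospondin-1 and thrombospondin-2 are trimeric glycoproteins that bind cells through CD36 and CD47, and thrombospondin-1 can release latent TGF-β. *Thbs1* was at 1419, 1825, and 1596 CPM in Control, 1163, 1150, and 956 in Collagen I, 2594, 2881, and 1967 in Fibronectin, and 3232, 3173, and 3296 in Geltrex™. *Thbs2* followed at a lower level, with 111, 124, and 132 CPM in Control, 97.6, 98.2, and 83.5 in Collagen I, 152, 173, and 145 in Fibronectin, and 223, 212, and 205 in Geltrex™. For both genes the 4 groups did not overlap, and Geltrex™ was highest and Collagen I lowest. *Thbs1* was 2.0-fold higher in Geltrex™ than in Control (log2 1.0, SE 0.13, edgeR adjusted p = 2.06e-05) and 1.54-fold higher in Fibronectin (log2 0.62, SE 0.13, edgeR adjusted p = 0.00184). *Thbs2* was 1.74-fold higher in Geltrex™ (log2 0.80, SE 0.092, edgeR adjusted p = 6.51e-06) and 1.28-fold higher in Fibronectin (log2 0.36, SE 0.092, edgeR adjusted p = 0.00787).

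Between the coatings, *Thbs1* was 2.97-fold and *Thbs2* 2.29-fold higher in Geltrex™ than in Collagen I, with edgeR adjusted p of 2.18e-07 and 1.06e-07. *Thbs2* was 1.36-fold higher in Geltrex™ than in Fibronectin (edgeR adjusted p = 0.00283) under each omission of 1 sample. The 1.30-fold difference of *Thbs1* (edgeR adjusted p = 0.0476) was lost without any one of the 6 samples other than Fibronectin replicate 2 (adjusted p = 0.0886 to 0.155). *Thbs1* was 1.48-fold lower in Collagen I than in Control (edgeR adjusted p = 0.0444), which was lost without any one of these 6 samples other than Control replicate 1 (adjusted p = 0.0871 to 0.194). *Thbs2*, lower by 1.31-fold there, had an edgeR adjusted p of 0.0520 and passed the test without Control replicate 1 (adjusted p = 0.0336).

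SPARC, also called osteonectin, is a collagen-binding protein that takes part in collagen fibril formation. *Sparc* was at 2873, 2656, and 2868 CPM in Control, 2943, 2660, and 3040 in Collagen I, 2422, 2294, and 2444 in Fibronectin, and 2407, 2410, and 2373 in Geltrex™. Every Fibronectin and Geltrex™ sample lay below every Control and Collagen I sample. The gene fell by 0.23 on the log2 scale in Fibronectin (1.17-fold, SE 0.079, edgeR adjusted p = 0.0367) and by 0.22 in Geltrex™ (1.17-fold, SE 0.079, edgeR adjusted p = 0.0400) against Control. Both calls were lost without any one of the 6 samples other than Control replicate 2, with an adjusted p of 0.0556 to 0.105 for Fibronectin and 0.0979 to 0.120 for Geltrex™, and both were lost with no filter on low counts. *Sparc* was 1.21-fold higher in Collagen I than in Fibronectin (edgeR adjusted p = 0.0114). It was 1.2-fold higher in Collagen I than in Geltrex™ (edgeR adjusted p = 0.0157), which was lost without Collagen I replicate 1 or any Geltrex™ sample (adjusted p = 0.0543 to 0.0599).

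Osteopontin, encoded by *Spp1*, is a secreted phosphoprotein that binds αv integrins and CD44. *Spp1* was at 2884, 2754, and 3263 CPM in Control, 3053, 2841, and 2969 in Collagen I, 3679, 4265, and 4374 in Fibronectin, and 4190, 4296, and 4142 in Geltrex™. The Control and Collagen I ranges overlapped, as did those of Fibronectin and Geltrex™, and the lower pair lay wholly below the upper pair. The transcript was 1.38-fold higher in Fibronectin (log2 0.47, SE 0.091, edgeR adjusted p = 0.00110) and 1.42-fold higher in Geltrex™ (log2 0.50, SE 0.091, edgeR adjusted p = 0.000467) than in Control. Collagen I and Control differed by -0.0061 on the log2 scale (95% interval -0.20 to 0.19), and Fibronectin and Geltrex™ by -0.036 (95% interval -0.23 to 0.16). A gene model on the same strand, *Gm42793*, shares 309 of the 1648 exon bases of *Spp1* and had 600 counts over all samples.

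Fibrillin-1, the product of *Fbn1*, forms the microfibrils on which elastin is laid down. *Fbn1* was at 564, 734, and 670 CPM in Control, 613, 539, and 458 in Collagen I, 696, 727, and 937 in Fibronectin, and 808, 805, and 856 in Geltrex™. The Control range overlapped those of Collagen I and Fibronectin, and Geltrex™ lay above Control. Against Control, Fibronectin differed by 0.26 on the log2 scale (95% interval -0.0074 to 0.53, edgeR adjusted p = 0.128) and Geltrex™ by 0.33 (95% interval 0.057 to 0.60, edgeR adjusted p = 0.0595), which passed the test without Control replicate 2 (adjusted p = 0.0315). *Fbn1* was 1.47-fold lower in Collagen I than in Fibronectin (edgeR adjusted p = 0.00263) and 1.53-fold lower than in Geltrex™ (edgeR adjusted p = 0.00141). An antisense gene model, *Gm9913*, shares 2442 of its 12128 exon bases and had 13 counts in all.

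*Eln* encodes tropoelastin, the monomer of elastin, and was barely detected. Its counts were 19, 9, and 14 in Control, 11, 7, and 11 in Collagen I, 6, 1, and 1 in Fibronectin, and 13, 10, and 15 in Geltrex™. Each Fibronectin sample was below all others by CPM, at 0.039 to 0.22 against 0.26 to 0.76 CPM. The fitted difference from Control was 5.14-fold lower (log2 -2.36, SE 0.59, 95% interval -3.61 to -1.12, edgeR adjusted p = 0.00634). Without Fibronectin replicate 1, which leaves 1 count in each Fibronectin sample, the fitted value was 12.3-fold lower than Control, 12.1-fold lower than Geltrex™, and 8.88-fold lower than Collagen I, so the size of the difference rests on a few counts. *Eln* was 5.05-fold lower in Fibronectin than in Geltrex™ (edgeR adjusted p = 0.0116), lost without Fibronectin replicate 2 (adjusted p = 0.0573) or Geltrex™ replicate 3 (0.0506). It was 3.70-fold lower in Fibronectin than in Collagen I (edgeR adjusted p = 0.0216), lost without Collagen I replicate 1 or 3 or Fibronectin replicate 2 or 3 (adjusted p = 0.0623 to 0.0855). At this depth the interval of the Geltrex™ difference from Control ran from -0.99 to 0.93 on the log2 scale.

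Lysyl oxidase, encoded by *Lox*, starts the covalent crosslinking of collagen and elastin. *Lox* was at 541, 609, and 633 CPM in Control, 546, 475, and 427 in Collagen I, 968, 1166, and 912 in Fibronectin, and 796, 753, and 784 in Geltrex™. Fibronectin lay above Geltrex™, and Geltrex™ above Control and Collagen I, which overlapped. *Lox* was 1.71-fold higher in Fibronectin than in Control (log2 0.77, SE 0.11, edgeR adjusted p = 5.59e-05) and 1.31-fold higher in Geltrex™ (log2 0.39, SE 0.11, edgeR adjusted p = 0.0105). It was 2.10-fold higher in Fibronectin than in Collagen I (edgeR adjusted p = 1.59e-06) and 1.61-fold higher in Geltrex™ than in Collagen I (edgeR adjusted p = 0.000122). The 1.31-fold difference between Fibronectin and Geltrex™ (edgeR adjusted p = 0.0183) was lost without Fibronectin replicate 2 or any Geltrex™ sample (adjusted p = 0.0591 to 0.102). An antisense gene model, *AC161119.1*, overlaps 30 exon bases of *Lox* and had 1741 counts in all.

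By mean CPM, Fibronectin was the highest group for 4 of the 10 genes (*Fn1*, *Tnc*, *Postn*, and *Lox*), Geltrex™ for 4 (*Thbs1*, *Thbs2*, *Spp1*, and *Fbn1*), Control for *Eln*, and Collagen I for *Sparc*. Collagen I was the lowest group for 8 of them, and Fibronectin for *Sparc* and *Eln*. Among these 8, only *Tnc* and *Thbs1* passed the test between Collagen I and the next group. Some ranks were near ties, such as Fibronectin with Geltrex™ for *Sparc* and *Spp1* and Control with Geltrex™ for *Eln*. The share of all genes with Collagen I lowest is not given here. Between Fibronectin and Control, 7 genes rose and *Sparc* and *Eln* fell, which made 9 of 10 called where 31.9% of all 14499 genes tested were called, 17.1% higher and 14.7% lower. Between Geltrex™ and Control, *Tnc*, *Thbs1*, *Thbs2*, *Spp1*, and *Lox* rose and *Sparc* fell, 6 of 10 against 33.0% of all genes, 16.4% higher and 16.6% lower. Between Collagen I and Control, *Tnc* and *Thbs1* fell, 2 of 10 against 1.12% of all genes, 0.200% higher and 0.917% lower. That count was 0 without Control replicate 2 or Collagen I replicate 2, and 1 without Control replicate 3, Collagen I replicate 1, or Collagen I replicate 3. These 3 comparisons share the Control samples. In the order of group means, groups next to each other did not pass the test for *Fn1*, *Postn*, or *Fbn1*, each pair of neighbors did for *Tnc* and *Thbs1*, and *Spp1* and *Sparc* divided into Control with Collagen I and Fibronectin with Geltrex™.

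Between the coatings, 8 genes were lower in Collagen I than in Fibronectin and *Sparc* and *Eln* were higher, so that all 10 were called, against 45.0% of all genes, 22.1% higher and 22.9% lower in Collagen I. In Collagen I against Geltrex™, the same 8 were lower and *Sparc* was higher, 9 of 10 against 37.1% of all genes, 18.2% higher and 19.0% lower. In Fibronectin against Geltrex™, *Tnc* and *Lox* were higher in Fibronectin and *Thbs1*, *Thbs2*, and *Eln* in Geltrex™, 5 of 10 against 19.3% of all genes, 10.3% higher and 9.06% lower in Fibronectin. That count was 3 without Fibronectin replicate 1, 2 without Fibronectin replicate 2, Geltrex™ replicate 1, or Geltrex™ replicate 2, and 1 without Geltrex™ replicate 3. The median log2 fold change of the 10 genes was 0.40 in Fibronectin against Control, 0.36 in Geltrex™ against Control, and -0.34 in Collagen I against Control, where the medians over all genes were -0.016, -0.012, and -0.0031. A change of 2-fold or more was reached by *Tnc* and *Eln* in Fibronectin against Control (6.66% of all genes), by *Thbs1* in Geltrex™ against Control (9.14%), and by none of the 10 in Collagen I against Control (0.131%). It was reached by *Tnc*, *Thbs1*, *Eln*, and *Lox* in Collagen I against Fibronectin (8.46%), by *Tnc*, *Thbs1*, and *Thbs2* in Collagen I against Geltrex™ (9.32%), and by *Eln* in Fibronectin against Geltrex™ (3.98%). When the Geltrex™ samples were added together as 1, all 5 calls between Fibronectin and Geltrex™ were lost. This alternative was added after seeing the data because the samples were unusually alike. The same setting ended the calls of *Sparc* and *Lox* in Geltrex™ against Control and those of *Fn1*, *Postn*, and *Sparc* in Collagen I against Geltrex™. It leaves 1 Geltrex™ sample, and its share of all genes called is not given here. Whether these losses are particular to the 10 genes was therefore not tested.

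**Figure D4:**
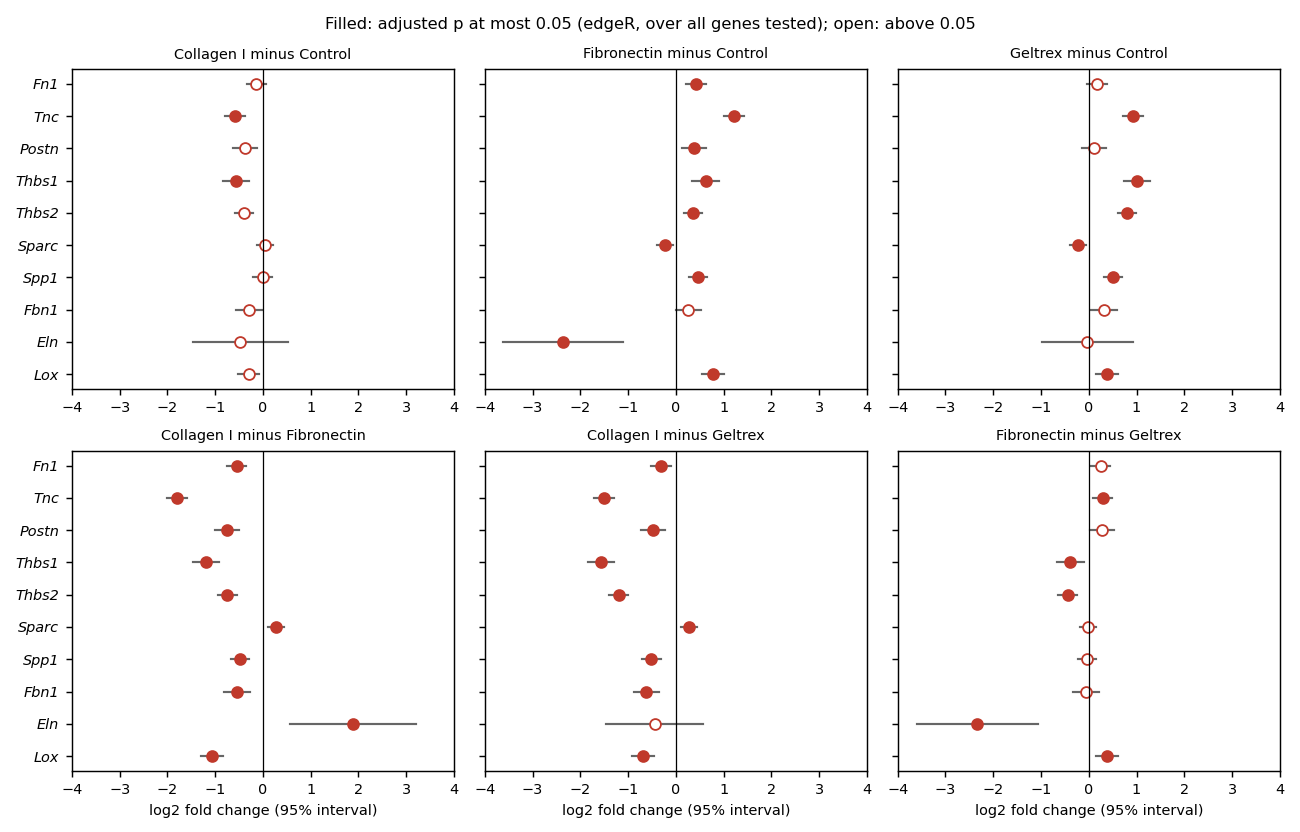
Log2 fold change of each gene in the 6 comparisons, first group minus second, with 95% intervals, filled where the edgeR adjusted p was at most 0.05 and open otherwise. Collagen I lay below Fibronectin and Geltrex™ for 8 of 10 genes, and *Eln* has the widest intervals.

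The sequence upstream of the transcription start was available from RefSeq (GRCm38.p6) for 6 of the genes, *Tnc*, *Postn*, *Thbs2*, *Sparc*, *Spp1*, and *Fbn1*, as 250 bases before to 50 bases after the start. The motif TATAAA, the core of the TATA box that binds the TATA-binding protein, was found on either strand in 4 of these 6, against 13.6% of all 32851 windows of the promoter set. Those windows were not limited to this build or to 1 per gene, as the windows of the 6 genes were. The motif was singled out among 10 after the windows had been searched, and a match is a description and not a binding site. The 250 bases before the start of these 4 genes, of which *Tnc* and *Thbs2* moved most with the coatings, are shown 5′ to 3′ on the strand of the gene, with the match in capitals.
Tnc: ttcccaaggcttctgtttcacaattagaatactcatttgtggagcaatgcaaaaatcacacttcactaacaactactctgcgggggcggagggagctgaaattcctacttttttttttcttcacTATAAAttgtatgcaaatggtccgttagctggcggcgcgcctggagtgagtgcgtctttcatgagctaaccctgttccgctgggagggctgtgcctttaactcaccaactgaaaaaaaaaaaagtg
Postn: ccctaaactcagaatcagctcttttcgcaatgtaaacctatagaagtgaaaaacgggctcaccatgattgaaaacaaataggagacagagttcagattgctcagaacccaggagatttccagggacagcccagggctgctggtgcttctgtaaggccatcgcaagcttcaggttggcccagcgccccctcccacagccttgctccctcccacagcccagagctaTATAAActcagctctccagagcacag
Thbs2: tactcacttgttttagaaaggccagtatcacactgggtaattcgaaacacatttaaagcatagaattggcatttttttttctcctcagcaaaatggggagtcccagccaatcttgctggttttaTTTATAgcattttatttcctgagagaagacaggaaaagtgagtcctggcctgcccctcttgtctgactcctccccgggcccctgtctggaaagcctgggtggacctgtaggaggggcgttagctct
Spp1: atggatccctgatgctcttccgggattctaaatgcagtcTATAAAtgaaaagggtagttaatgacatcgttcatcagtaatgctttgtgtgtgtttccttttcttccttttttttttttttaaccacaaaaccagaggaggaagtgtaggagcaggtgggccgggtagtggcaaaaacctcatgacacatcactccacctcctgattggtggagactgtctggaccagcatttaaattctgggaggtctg

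The *Tnc* stretch is chr4:64047016-64047265 on the minus strand, *Postn* is chr3:54360857-54361106 on the plus strand, *Thbs2* is chr17:14694263-14694512 on the minus strand, and *Spp1* is chr5:104434861-104435110 on the plus strand. In *Postn* the match began 26 bases before the start, where a TATA box usually lies. It began 126 bases before the start in *Tnc*, 126 in *Thbs2*, where it lay on the opposite strand and reads TTTATA, and 211 in *Spp1*. The windows of *Sparc* and *Fbn1* did not hold the motif, and they belong to starts 3103 and 1555 bases inside the genes' GENCODE start. Among the other motifs searched on both strands, CCAAT was found in *Thbs2* and *Spp1* (37.4% of all windows) and GGGCGG in *Tnc* and *Fbn1* (35.7% of all windows). The AP-1 motif TGACTCA (5.2% of all windows), the TEAD motif GGAATG (14.7%), the E-box CACGTG (7.15%), the CRE TGACGTCA (1.79%), the CArG box, whose core of A and T can hold TATAAA (1.63%), and the Smad box GTCTAGAC (0.213%) were in none of the 6. The NF-κB motif was in *Thbs2* and in 4.51% of all windows.

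The matricellular relatives of these genes were examined as a further list of 27, of which 16 were tested. In Geltrex™ against Control, 5 of the 16 rose and 3 fell, where 33.0% of all genes were called. In Fibronectin against Control 4 rose and 3 fell, where 31.9% of all genes were called, and in Collagen I against Control only *Ccn5* fell, where 1.12% of all genes were called. The CCN genes, which encode secreted proteins that bind integrins and growth factors, moved most. *Ccn1* was at 283, 182, and 208 CPM in Control, 251, 191, and 285 in Collagen I, 62.5, 77.4, and 257 in Fibronectin, and 1638, 1555, and 1608 in Geltrex™. Geltrex™ stood apart from the other groups, and Fibronectin replicate 3 lay within the Control range while its other replicates lay below it. *Ccn1* was 7.14-fold higher in Geltrex™ than in Control (log2 2.84, SE 0.38, edgeR adjusted p = 3.24e-05).

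*Ccn2*, which encodes connective tissue growth factor, was at 96.9, 91.7, and 102 CPM in Control, 120, 96.0, and 99.8 in Collagen I, 110, 126, and 102 in Fibronectin, and 581, 516, and 547 in Geltrex™. It was 5.66-fold higher in Geltrex™ than in Control (log2 2.50, SE 0.10, edgeR adjusted p = 4.19e-10), and Collagen I and Fibronectin did not pass the test against Control. *Ccn1* and *Ccn2* thus separated Geltrex™ from Fibronectin by 12.1-fold and 4.86-fold (edgeR adjusted p = 9.93e-06 and 8.85e-10), with 22.9-fold for *Ccn1* without Fibronectin replicate 3, whereas *Thbs1* and *Thbs2* did so by 1.30-fold and 1.36-fold. *Ccn3* was higher in both, by 2.26-fold in Fibronectin and 2.47-fold in Geltrex™ against Control (edgeR adjusted p = 1.42e-06 and 3.68e-07). *Ccn4* rose 1.75-fold in Fibronectin (edgeR adjusted p = 0.000198), and *Ccn5* fell 1.93-fold in Fibronectin, 1.33-fold in Geltrex™, and 1.35-fold in Collagen I (edgeR adjusted p = 3.81e-06, 0.00411, and 0.0431). The Collagen I call of *Ccn5* was lost without any one of the 6 samples other than Collagen I replicate 3 (adjusted p = 0.0504 to 0.142).

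*Spock2*, a testican gene, rose 1.71-fold in Fibronectin against Control and was 2.08-fold lower in Collagen I than in Fibronectin (edgeR adjusted p = 0.00260 and 0.000197). *Smoc2*, which encodes a SPARC-related calcium-binding protein, fell 2.12-fold in Geltrex™ against Control (edgeR adjusted p = 0.000221). *Dmp1*, a gene of the osteopontin family, was 1.57-fold lower in Fibronectin and 1.53-fold lower in Collagen I than in Geltrex™ (edgeR adjusted p = 0.00809 and 0.00643). Its group means were 3.68 CPM in Control, 4.11 in Collagen I, 3.98 in Fibronectin, and 6.28 in Geltrex™. *Sparcl1*, the closest relative of *Sparc*, had means of 2.56 CPM in Control, 4.16 in Collagen I, 2.71 in Fibronectin, and 4.85 in Geltrex™. *Sparcl1* was 1.78-fold lower in Fibronectin than in Geltrex™ (edgeR adjusted p = 0.0128), a call lost without Fibronectin replicate 2 or Geltrex™ replicate 2 (adjusted p = 0.0635 and 0.0551). It was 1.53-fold higher in Collagen I than in Fibronectin (edgeR adjusted p = 0.0309), lost without Collagen I replicate 1 or 2 or Fibronectin replicate 1 or 2 (adjusted p = 0.0554 to 0.136). Between Collagen I and Geltrex™, *Ccn1*, *Ccn2*, and *Ccn3* were lower in Collagen I by 6.60-fold, 5.2-fold, and 3.51-fold, and *Ccn3* and *Ccn4* were lower in Collagen I than in Fibronectin by 3.21-fold and 1.97-fold (edgeR adjusted p = 4.65e-05, 4.99e-10, 1.62e-08, 3.55e-08, and 2.40e-05).

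**Figure D5:**
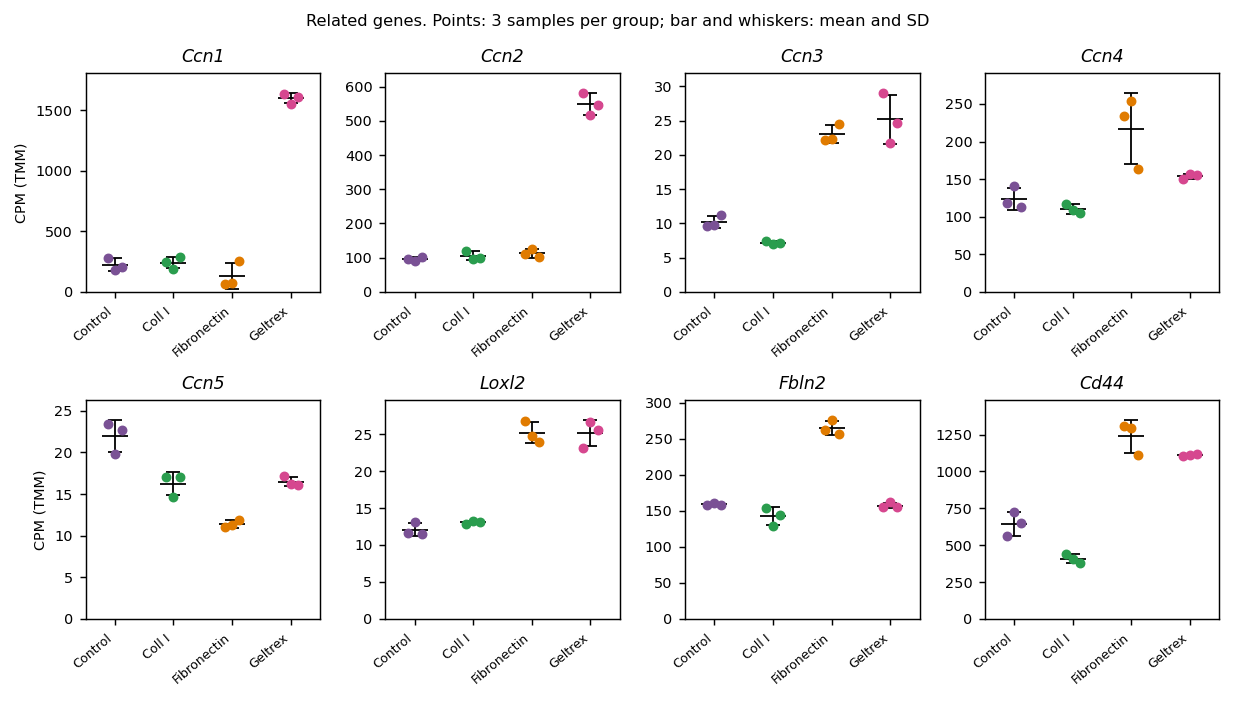
CPM of 5 CCN genes, *Loxl2*, *Fbln2*, and *Cd44* in 3 samples of each group (points) with mean and SD (bar and whiskers). *Ccn1* and *Ccn2* were high in Geltrex™ alone among the 4 groups, *Fbln2* in Fibronectin alone, and *Loxl2* and *Cd44* in both.

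Of 19 further elastic fiber and lysyl oxidase-like genes, 17 were tested. In Fibronectin against Control 5 rose and 2 fell (31.9% of all genes were called), and in Geltrex™ against Control 6 rose and 2 fell (33.0% of all genes). In Collagen I against Control (1.12% of all genes) edgeR called 0, with 4 at an unadjusted p under 0.05 and 1 called by DESeq2. *Loxl2*, a lysyl oxidase-like enzyme, was at 11.6, 13.1, and 11.5 CPM in Control, 12.9, 13.3, and 13.2 in Collagen I, 26.7, 24.8, and 24 in Fibronectin, and 23.2, 26.6, and 25.6 in Geltrex™. It was 2.09-fold higher in Fibronectin and 2.08-fold higher in Geltrex™ than in Control (edgeR adjusted p = 5.83e-07 and 4.52e-07). *Fbln2*, which encodes the matrix glycoprotein fibulin-2, was at 159, 161, and 158 CPM in Control, 154, 129, and 144 in Collagen I, 262, 276, and 257 in Fibronectin, and 155, 162, and 155 in Geltrex™. It was 1.66-fold higher in Fibronectin than in Control and 1.68-fold higher than in Geltrex™ (edgeR adjusted p = 2.70e-06 and 3.53e-06). *Ltbp2*, a latent TGF-β binding protein gene, had means of 123 CPM in Control, 104 in Collagen I, 138 in Fibronectin, and 203 in Geltrex™. It was 1.66-fold higher in Geltrex™ than in Control and 1.48-fold higher than in Fibronectin (edgeR adjusted p = 0.000106 and 0.00203).

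*Emilin1* and *Emilin2*, which encode elastin microfibril interface proteins, rose 1.55-fold and 1.65-fold in Geltrex™ against Control (edgeR adjusted p = 0.00891 and 5.45e-06). *Emilin1* was 1.48-fold lower in Fibronectin than in Geltrex™ (edgeR adjusted p = 0.0280), a call lost without any one of the 6 samples other than Fibronectin replicate 3 (adjusted p = 0.0584 to 0.124). *Loxl4*, another lysyl oxidase-like gene, rose 1.55-fold in Fibronectin against Control (edgeR adjusted p = 0.00892), lost without Fibronectin replicate 1 (adjusted p = 0.0522). *Ltbp4*, which also encodes a latent TGF-β binding protein, rose 1.54-fold there (edgeR adjusted p = 0.000343). Its group means were 44.9 CPM in Control, 46.2 in Collagen I, 69.2 in Fibronectin, and 67.5 in Geltrex™. *Fbln5*, the gene of the elastogenic fibulin-5, was 1.60-fold higher in Fibronectin than in Geltrex™ (edgeR adjusted p = 0.000506). Collagen I was lower than Fibronectin for *Loxl2*, *Fbln2*, *Loxl4*, and *Fbln5* by 1.92-fold, 1.86-fold, 1.60-fold, and 1.54-fold (edgeR adjusted p = 1.41e-06, 2.54e-07, 0.00437, and 0.000429). It was lower than Geltrex™ for *Ltbp2*, *Loxl2*, *Emilin2*, and *Emilin1* by 1.95-fold, 1.92-fold, 1.72-fold, and 1.71-fold (edgeR adjusted p = 7.19e-06, 1.30e-06, 2.31e-06, and 0.00233).

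All 14 genes for receptors of fibronectin and the matricellular proteins were tested. Of these, 5 rose and 4 fell in Fibronectin against Control (31.9% of all genes were called), 4 rose and 5 fell in Geltrex™ (33.0%), and 2 fell in Collagen I (1.12%). The 4 of largest fold in Fibronectin against Control were falls, of *Itga9*, *Cd36*, *Itgb6*, and *Itga8*. *Cd44*, an osteopontin and hyaluronan receptor gene, was at 560, 723, and 649 CPM in Control, 438, 409, and 380 in Collagen I, 1311, 1293, and 1112 in Fibronectin, and 1108, 1110, and 1119 in Geltrex™. It was 1.92-fold higher in Fibronectin and 1.73-fold higher in Geltrex™ than in Control, and 1.57-fold lower in Collagen I (edgeR adjusted p = 3.50e-06, 1.50e-05, and 0.00391). *Sdc4*, which encodes syndecan-4, a heparan sulfate co-receptor for fibronectin, had means of 225 CPM in Control, 171 in Collagen I, 295 in Fibronectin, and 381 in Geltrex™. It was 1.31-fold lower in Collagen I, 1.31-fold higher in Fibronectin, and 1.69-fold higher in Geltrex™ than in Control (edgeR adjusted p = 0.0339, 0.00229, and 4.55e-06). The Collagen I call was lost without Control replicate 1 or 2 or Collagen I replicate 1 or 2 (adjusted p = 0.0608 to 0.161). *Sdc4* was 1.29-fold lower in Fibronectin than in Geltrex™ (edgeR adjusted p = 0.00591).

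*Cd36*, a thrombospondin and fatty acid receptor gene, was at 5.69, 6.68, and 4.80 CPM in Control, 10.3, 10.5, and 4.96 in Collagen I, 2.56, 2.18, and 1.48 in Fibronectin, and 1.37, 1.81, and 2.57 in Geltrex™. All Fibronectin and Geltrex™ samples lay below all Control and Collagen I samples. *Cd36* was 2.76-fold lower in Fibronectin and 3.0-fold lower in Geltrex™ than in Control (edgeR adjusted p = 0.00135 and 0.000686), opposite in direction to *Thbs1* and *Thbs2*. It was 4.14-fold and 4.50-fold higher in Collagen I than in Fibronectin and Geltrex™ (edgeR adjusted p = 4.44e-05 and 3.34e-05).

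*Itga9*, the α9 integrin gene, whose product binds tenascin-C and osteopontin, had 23, 15, and 12 counts in Control, 19, 17, and 10 in Collagen I, 1, 5, and 1 in Fibronectin, and 4, 2, and 6 in Geltrex™. It was 6.84-fold lower in Fibronectin than in Control (edgeR adjusted p = 0.00227), or 15.4-fold without Fibronectin replicate 2, and 6.54-fold lower than in Collagen I (edgeR adjusted p = 0.00196), or 14.7-fold without that sample. It was 3.74-fold lower in Geltrex™ than in Control (edgeR adjusted p = 0.0127), lost without Control replicate 1 or Geltrex™ replicate 2 (adjusted p = 0.0616 and 0.0735). The 3.57-fold difference from Collagen I (edgeR adjusted p = 0.0150) was lost without Collagen I replicate 1, Geltrex™ replicate 1, or Geltrex™ replicate 2 (adjusted p = 0.0516 to 0.0787).

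*Itga8*, the α8 integrin gene, was 5.10-fold lower in Geltrex™ and 1.99-fold lower in Fibronectin than in Control (edgeR adjusted p = 9.10e-07 and 0.00128), and it was 2.57-fold lower in Geltrex™ than in Fibronectin and 3.54-fold lower than in Collagen I (edgeR adjusted p = 0.000670 and 1.54e-05). *Itgb6*, the β6 integrin gene, was 2.13-fold lower in Fibronectin than in Control (edgeR adjusted p = 5.85e-05). Its group means were 16.4 CPM in Control, 13.5 in Collagen I, 7.68 in Fibronectin, and 10.7 in Geltrex™. Its 1.39-fold difference between Fibronectin and Geltrex™ (edgeR adjusted p = 0.0412) was lost without any one of the 6 samples other than Geltrex™ replicate 2 (adjusted p = 0.0638 to 0.144). *Itga4*, the α4 integrin gene, with 20 to 73 counts per sample, rose 2.51-fold in Geltrex™ against Control (edgeR adjusted p = 0.00405). Its group means were 0.97 CPM in Control, 1.76 in Collagen I, 1.83 in Fibronectin, and 2.45 in Geltrex™. *Itgb3*, the β3 integrin gene, was 1.71-fold higher in Fibronectin than in Control, 2.32-fold higher than in Collagen I, and 2.06-fold higher than in Geltrex™ (edgeR adjusted p = 8.04e-05, 8.28e-07, and 8.49e-06). *Cd44* was 3.03-fold and 2.72-fold lower in Collagen I than in Fibronectin and Geltrex™ (edgeR adjusted p = 1.24e-08 and 3.18e-08).

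Across the 12 samples, which share the 4 groups, the profile of log2 CPM most like that of each gene was sought among 12320 genes. The highest Pearson r was 0.990 between *Thbs1* and *F3*, the tissue factor gene, 0.990 between *Lox* and *Tmod3*, and 0.988 between *Thbs2* and *Glis3*. For *Tnc*, *Wasf2* and *Cd44* came first, both at 0.987. The gene most like *Fn1* was *Gpc6* (0.968), a glypican gene. *Spp1* was closest to *Ezh2* (0.981), followed by *Zwilch* and *Spc25*, which are genes of the mitotic kinetochore. *Postn* was closest to *Stt3a* (0.983), *Sparc* to *Ccdc107* (0.967), *Fbn1* to *Dnmt1* (0.936), and *Eln* to *Selenos* (0.928). Among the 10 genes themselves, *Thbs1* and *Thbs2* were the most alike, with an r of 0.979. These values describe 4 groups of 3 samples and carry no p.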

How the data were processed

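The authors checked reads with FastQC, trimmed them with Trimmomatic, used HISAT2 for alignment, and used featureCounts for counting per gene. The deposited values are raw read counts, 1 column per sample, with no replicate pooled. Tool versions, genome build, annotation, and strand setting were not given in the sources used here, so reads of overlapping genes cannot be told apart. All 55536 identifiers matched GENCODE annotation of GRCm38, which gave names, positions, and exon lengths.

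The counts were tested with edgeR (version 4.0.16, R 4.3.3). The filterByExpr function (minimum count 10, minimum total 15) kept 14499 genes. After TMM scaling, all 4 groups were fitted in a single quasi-likelihood model (8 residual degrees of freedom), from which the 6 comparisons were drawn. Benjamini-Hochberg adjustment covered every gene tested, and a gene was called at an adjusted p of at most 0.05. SE was the log2 fold change divided by the root of F. Total counts of 22520404 to 27351766 per sample leave wide errors for genes with few counts, such as *Eln*.

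The 10 genes, the further lists, and the markers were chosen with earlier results of these data known. Named in the text are the 10 genes, the genes that in any comparison were among the 4 called of largest change in a further list, with values also from other comparisons, and the 3 genes of most like profile (over 1 CPM, prior count 2). Alternatives were DESeq2 1.42.0, RLE scaling, other filters, only the groups compared, a 2-fold minimum, the replicate number as a block, and omission of each sample. The procedure was tested on simulated data for Fibronectin against Control only, with changes of 2-fold or more in genes of at least 1 CPM. Smaller changes, and genes below that level such as *Eln*, were not covered.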

Additional observations from a re-analysis of the deposited data

How the results depend on the processing

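The number of the 10 genes called in Collagen I against Control, 2 in the analysis reported, was 1 with RLE scaling, 4 with no filter on low counts, 0 with only the groups compared, and 0 to 3 with 1 sample left out. With a 2-fold minimum, the counts called were 0 for Collagen I against Control, 2 for Fibronectin against Control, 1 for Geltrex™ against Control, 4 for Collagen I against Fibronectin, 3 for Collagen I against Geltrex™, and 1 for Fibronectin against Geltrex™. In Fibronectin against Geltrex™, 1 to 4 genes were called with 1 sample left out, against 5 with all samples. With the Geltrex™ samples summed into 1, an alternative added after seeing the data, 10 of the calls in the 3 comparisons with Geltrex™ were lost. Among them were all 5 between Fibronectin and Geltrex™, *Sparc* and *Lox* against Control, and *Fn1*, *Postn*, and *Sparc* against Collagen I. The share of all genes called in that setting is not given here. With 1 sample left out, 9 to 10 were called in Collagen I against Fibronectin, 7 to 8 in Collagen I against Geltrex™, 7 to 9 in Fibronectin against Control, and 5 to 7 in Geltrex™ against Control. DESeq2 kept the side of the threshold of 57 of 60 gene results and brought *Thbs2* in Collagen I against Control, *Fbn1* in Geltrex™ against Control, and *Fn1* in Fibronectin against Geltrex™ under it. RLE scaling lost 2 calls of *Thbs1*, and no filter lost 2 calls of *Sparc* and gained 6 others. With only the groups compared, 4 calls were lost, *Tnc* and *Thbs1* in Collagen I against Control and *Sparc* in Fibronectin against Control and in Collagen I against Fibronectin, and 3 were gained, *Fbn1* in Geltrex™ against Control and *Fn1* and *Postn* in Fibronectin against Geltrex™.

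The direction changed only for differences near 0 that were not called. *Spp1* in Collagen I against Control was at 0.0019 on the log2 scale with only the groups compared. With 1 sample left out it ranged from -0.052 to 0.067, with 0.024 without Collagen I replicate 2, and *Sparc* there ranged from -0.0064 to 0.098. *Eln* in Geltrex™ against Control ranged from -0.30 to 0.25, with 0.020 without Control replicate 3 and 0.15 without Geltrex™ replicate 2. In Fibronectin against Geltrex™, the range was -0.084 to 0.036 for *Spp1*, -0.21 to 0.013 for *Fbn1*, and -0.024 to 0.022 for *Sparc*. The cause of these changes was not tested.

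No consistent pairing by replicate number was seen, since in no comparison did all 3 same-numbered pairs have a correlation of deviations over 0.1 (-0.154 to 0.225). In Collagen I against Fibronectin all 3 were positive, at 0.047, 0.169, and 0.225. Pairs of different numbers were not compared, so these values cannot decide whether the numbers pair the samples. With the number as a block, the counts of called genes were 2, 9, 6, 10, 9, and 5, and no call of the 60 changed. With at least 10 counts in every sample, *Eln* was not tested.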

Other observations

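The Geltrex™ samples were more alike than those of the other groups. The median chi-square per gene between a pair of them was 0.827 to 1.11, where sampling noise alone gives 0.455, and it was 1.45 to 6.45 between pairs within the other groups. They differed by more than sampling noise and were kept as 3 samples.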
